A study of Mus musculus with 24 samples.

Results

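The genes described here encode the parts of the neuronal cytoskeleton and its transport system: tubulins, stathmins, microtubule-associated proteins, neurofilaments, kinesins and dyneins. A probe set, the group of short probes that reports 1 transcript on an Affymetrix array, was taken when the array's annotation gave it a single gene symbol naming an alpha, beta or gamma tubulin, a stathmin, Map1a, Map1b, Map1s, Map2, Map4, tau (Mapt), doublecortin (Dcx), a Kif kinesin, a neurofilament subunit or a dynein subunit of the Dync series. The choice used names and no measured value. It gave 64 genes of the 13674 with a probe set of their own symbol, measured by 120 of 24833 probe sets. Array A (MGU74A) held 64 of these probe sets, for 47 genes. Array B (MGU74B) held 56, for 35 genes, and 18 genes were on both designs.

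Brain RNA of Ts1Cje mice was compared with brain RNA of 2N mice. The Ts1Cje strain models Down syndrome. It carries the end segment of chromosome 16 as an additional copy, joined to chromosome 12 by a translocation, and 2N mice have the normal chromosome complement. Every group of 1 genotype on 1 array design had 6 samples, 24 arrays in all. The labels give no further allele or agent and leave out age, sex and brain region. Since no label states that each sample was its own animal, the p-values here refer to variation among the samples as given, part or all of which may be technical.

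Microtubules are hollow polymers of alpha and beta tubulin that are nucleated by gamma tubulin. Microtubule-associated proteins stabilise them, stathmins bind free tubulin and favour disassembly, and kinesins and dynein walk along them with cargo or pull on them in cell division. Neurofilaments are the intermediate filaments of neurons and set the calibre of axons. In the developing brain the neuronal tubulins, doublecortin and the stathmins are strongly expressed in migrating and growing neurons.

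The deposited intensities were quantile normalised within each array design, floored at 1.47 (array A) or 1.13 (array B) and put on the log2 scale, and probe sets under the 25th percentile of mean intensity were left out of the test. Spearman correlations between arrays were 0.914 to 0.957 for design A and 0.883 to 0.926 for design B. Samples 1 and 2 of each genotype stood apart from samples 3 to 6 in earlier results, and values within these sets are given where a member had one of the smallest p or divided along them. Of 15 listed neuron markers 13 were measured on array A, and their summed normalised intensity was 5018 to 5525 in Ts1Cje and 5210 to 5406 in 2N. Neuron markers were thus present, in overlapping amounts. In such whole-tissue RNA, fewer cells of a type and less RNA per cell cannot be told apart. By the gene order of RefSeq, 0 members lay in the extra segment.

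No tubulin, stathmin, microtubule-associated protein, neurofilament, kinesin or dynein passed the test between Ts1Cje and 2N brain. The test was limma with Benjamini-Hochberg adjustment over all probe sets of an array, called under 0.05, and log2 differences are Ts1Cje minus 2N. Array A had 0 passing members of 57 tested, where 0.0966% of all 9316 tested probe sets passed. Array B had 0 of 44, where 0.0645% of 9308 passed. At an unadjusted limma p under 0.05 there were 2 members on each array, against 3.63% of all probe sets on array A and 4.24% on array B. No member had Ts1Cje samples entirely outside the range of the 2N samples, a pattern that 0.301% of all tested probe sets showed on array A (0.193% higher and 0.107% lower in Ts1Cje) and 0.247% on array B (0.193% higher and 0.0537% lower). The lowest adjusted p of any member was 0.990 for array A and 0.996 for array B (limma).

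The differences lay close to 0 on both sides. On array A the difference was above 0 for 30 of the 57 probe sets (52.6%, beside 48.9% of all tested probe sets), and on array B for 18 of 44 (40.9%, beside 49.3%). These splits depended on the scaling. With each array scaled to its median in place of quantile normalisation, 35.1% of the members on array A lay above 0, beside 42.4% of all probe sets, and without normalisation 24.6% did, beside 37.7%. On array B the share was 38.6% with median scaling, beside 49.7% of all probe sets, and 52.3% without normalisation, beside 61.3%. The member share on array B was thus below that of all probe sets under each scaling. On array A it was above that of all probe sets after quantile normalisation and below it under the other settings. With 1 probe set for each gene, the brightest, the median log2 difference was 0.01 over 45 genes on array A and -0.03 over 29 genes on array B. No direction is therefore given for the members as a group.

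**Figure D1:**
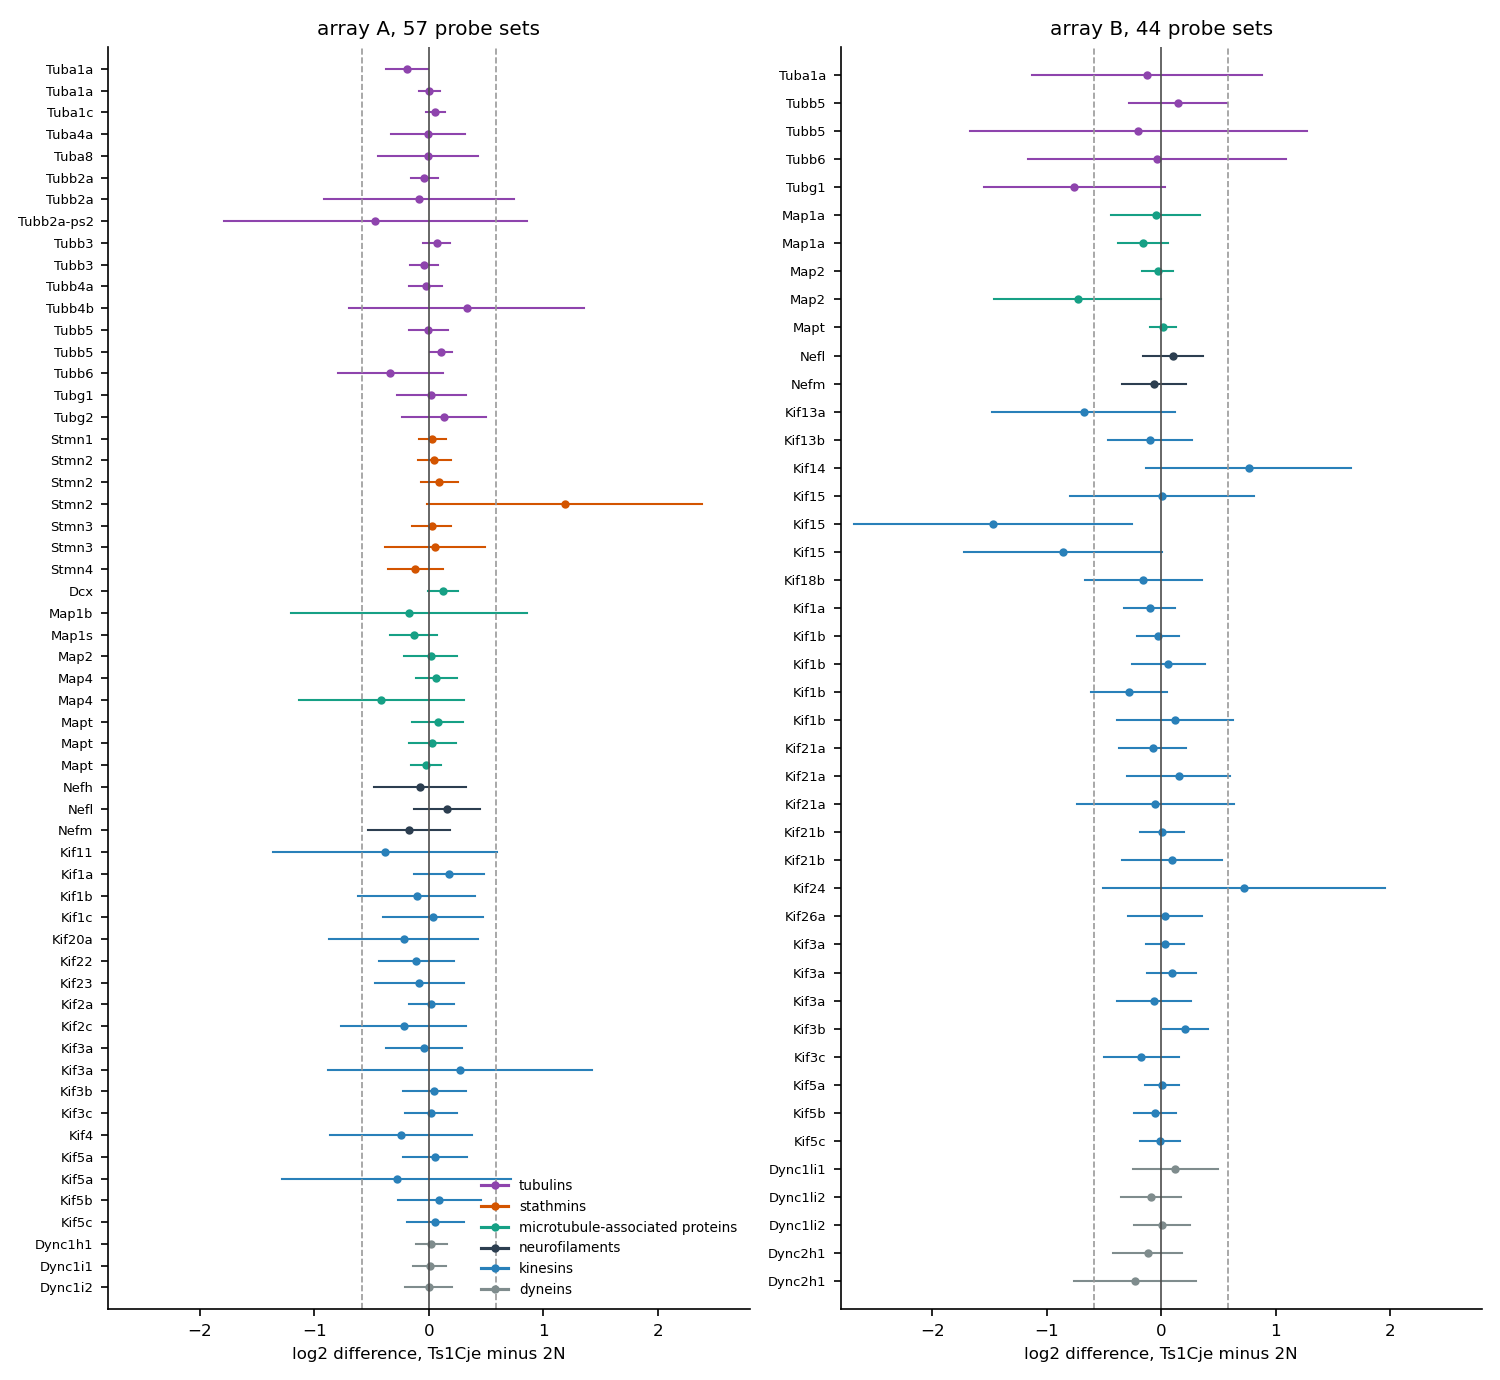
Log2 difference between Ts1Cje and 2N brain (x axis) for each tested probe set (rows, coloured by role), 57 on array A and 44 on array B. Points are limma estimates, bars their 95% intervals, and dashed lines mark 1.5-fold in each direction. The bars of bright tubulins, stathmins and tau are short and lie inside the dashed lines, and the long bars belong to dim probe sets.

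How small a change could have been missed differed with brightness. Among the 35 member probe sets with a mean normalised intensity of 100 or more, the 95% interval of the difference lay within 1.5-fold in both directions for 35. Among the 36 between 20 and 100 it did so for 33, and among the 30 below 20 for 2. These bounds of intensity were chosen after the values were seen. Of all tested probe sets at 100 or more, 97.7% had such an interval on either array. The log2 differences ran from -0.19 to 0.17 in the bright group, from -0.34 to 0.21 in the middle group and from -1.47 to 1.19 in the dim group. Large estimates therefore occurred only among dim probe sets, and no such estimate passed. Scaling to the median gave the same counts of intervals. Without normalisation fewer intervals lay inside. On array A the counts were then 21 of 24 in the bright, 7 of 20 in the middle and 0 of 13 in the dim group. Of all tested probe sets 59.7%, 18.5% and 0% did so there. On array B the counts were 10 of 11, 10 of 16 and 0 of 17, beside 79.9%, 44.5% and 1.7% of all tested probe sets.

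**Figure D2:**
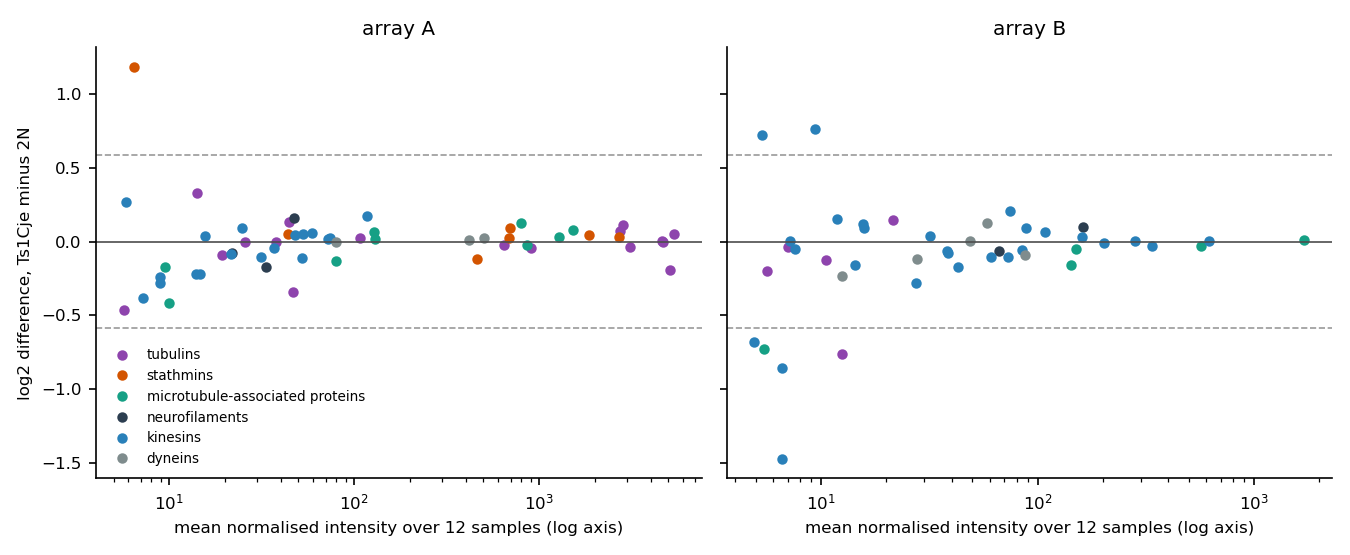
Log2 difference between Ts1Cje and 2N (y axis) against mean normalised intensity over 12 samples (x axis, log scale) for the tested members of each array, coloured by role; dashed lines mark 1.5-fold. Points at or above 100 lie between -0.19 and 0.17, and the points outside the dashed lines all have an intensity below 20.

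Alpha tubulins were among the brightest signals of array A. Below, 3 values for a genotype are the lowest, the median and the highest normalised intensity of its 6 samples, and an intensity ranks samples of 1 probe set and not genes against each other. For Tuba1a, the main alpha tubulin of developing neurons, the brightest probe set (100342_i_at) had 3623, 4786 and 5567 in Ts1Cje, against 4670, 5567 and 5567 in 2N. The groups overlapped, with the lowest values in Ts1Cje. The log2 difference was -0.19 (SE 0.0876), with a limma adjusted p of 0.990 and an exact permutation p of 0.152. Exact permutation tests here are two-sided, over all ways of dividing 12 samples into groups of 6. The other bright Tuba1a probe set, 100343_f_at, gave 0.00 (SE 0.0440), so the pair did not show a common shift. Another Tuba1a probe set, on array B, was dim and gave -0.12 (SE 0.480). For Tuba1c, another alpha tubulin, the probe set 101543_f_at had 5258, 5567 and 5567 in Ts1Cje, against 5258 in every 2N sample. Its log2 difference was 0.05 (SE 0.0392, limma adjusted p = 0.990). Tuba4a and Tuba8 gave 0.00 each (-0.00408 and -0.00473).

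Quantile normalisation limits what the very brightest probe sets can show. It gives the same value to the same rank on every array, so a gene that is first or second on all arrays can take only a pair of values. Of the 25 brightest probe sets of array A, 8 were members, and all 8 had fewer than 12 distinct values over 12 arrays. Tuba1c had 2. Scaled to the array median, Tuba1c had 4787, 5464 and 5876 in Ts1Cje, against 4760, 5269 and 6774 in 2N, and its log2 difference was -0.02 in place of 0.05. Tuba1a (100342_i_at) had -0.30 under median scaling (limma adjusted p = 0.986, exact permutation p = 0.0866), where the median of all probe sets was -0.03. Among samples 3 to 6 alone the quantile-normalised difference of this probe set was -0.11, and among samples 1 and 2 it was -0.36.

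**Figure D3:**
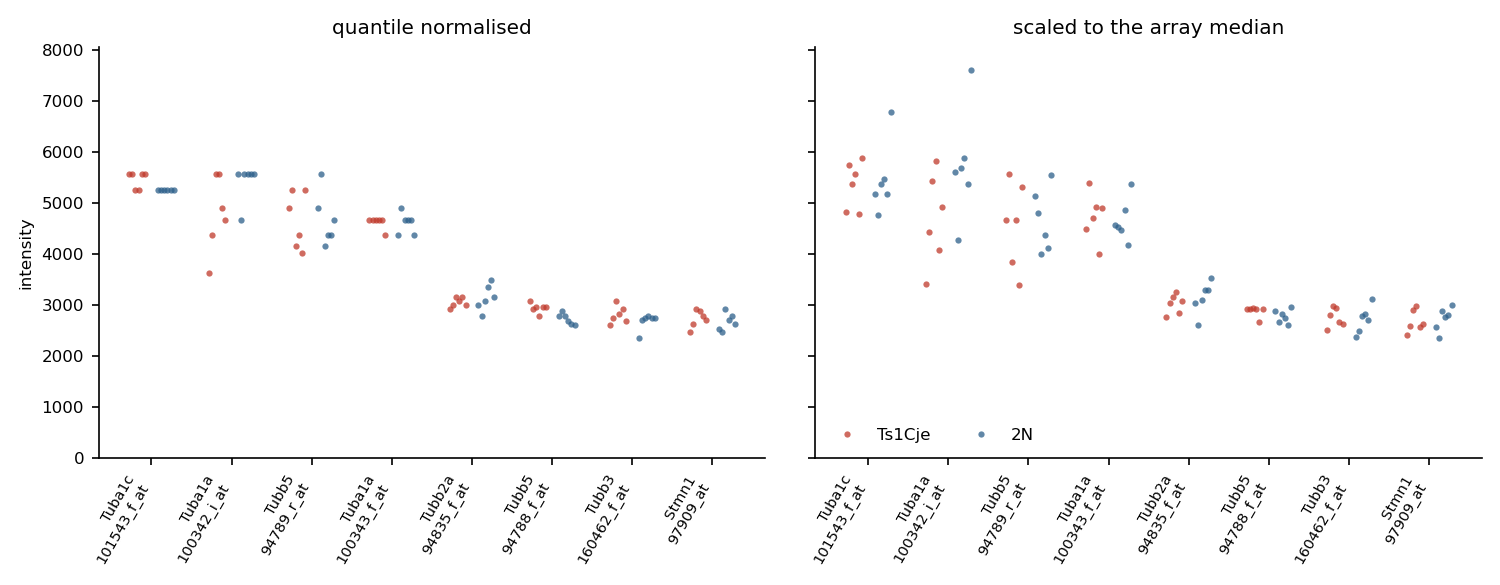
Intensity (y axis, linear from 0) of the 8 member probe sets among the 25 brightest of array A, in 6 Ts1Cje and 6 2N samples each, after quantile normalisation (left) and after scaling to the array median (right). Each point is 1 sample. On the left the points of Tuba1c and Tuba1a sit on a few shared levels, and on the right the same samples spread out and overlap.

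Beta tubulins were measured by 13 tested probe sets, and none passed. Tubb3, the neuron-specific beta tubulin that is widely used as a neuronal marker, had 2597, 2784 and 3072 in Ts1Cje, against 2342, 2737 and 2783 in 2N, with overlapping groups. Its log2 difference was 0.07 (SE 0.0558, limma adjusted p = 0.990), and a second Tubb3 probe set gave -0.04 (SE 0.0566). Tubb5, a beta tubulin of dividing cells and early neurons, had the smallest p of any member on array A. Its probe set 94788_f_at had 2783, 2953 and 3072 in Ts1Cje, against 2597, 2731 and 2874 in 2N. The Ts1Cje samples were mostly the higher ones, yet the ranges overlapped. The log2 difference was 0.11 (SE 0.0453, limma unadjusted p = 0.0266, adjusted p = 0.990, exact permutation p = 0.00866). Under median scaling it was 0.05 (exact permutation p = 0.145), and among samples 3 to 6 and samples 1 and 2 it was 0.12 and 0.08. The other bright Tubb5 probe set, 94789_r_at, gave -0.01 (SE 0.0802).

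The remaining beta tubulins were unremarkable in the same way. Tubb2a and Tubb4a, both abundant brain beta tubulins, gave -0.04 (SE 0.0547) and -0.03 (SE 0.0682). Tubb6, a minor isotype, had -0.34 (SE 0.218) on array A with an intensity near 46.7, and Tubb4b, which is broadly expressed, had 0.33 (SE 0.488) at an intensity near 14.1. Neither passed. Tubb2a-ps2, a pseudogene that matches the naming rule, gave -0.47 (SE 0.629) near the lower limit of the test, at an intensity of 5.69. Probe sets whose names carry _f or _s can share probes with related sequences. Tubulin isotypes are close in sequence, so how the signal divides between isotypes is uncertain.

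Gamma tubulin nucleates microtubules at centrosomes and along axons. Tubg1 had 93.2, 109 and 120 in Ts1Cje, against 67.8, 113 and 143 in 2N on array A, so the Ts1Cje values lay inside the 2N range. The log2 difference was 0.02 (SE 0.141, limma adjusted p = 0.998). A dim Tubg1 probe set on array B gave -0.76 (SE 0.376), which did not pass (limma adjusted p = 0.996). Tubg2, the other gamma tubulin gene, expressed mainly in brain, had 0.13 (SE 0.173).

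**Figure D4:**
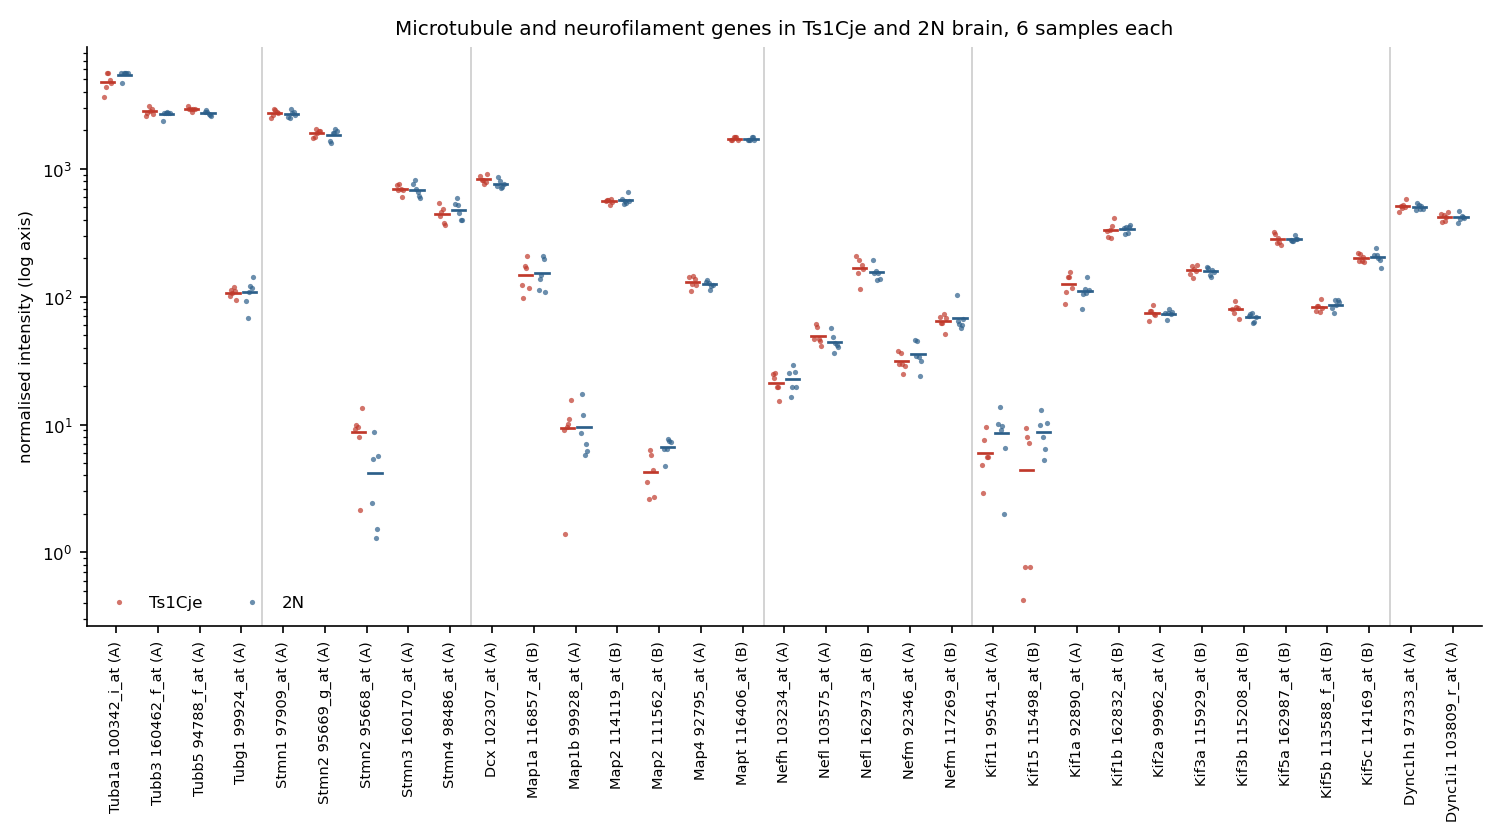
Normalised intensity (y axis, log scale) of 33 named probe sets, with gene, probe set and array on the x axis; each point is 1 sample, bars are means, and red (left of each pair) is Ts1Cje and blue is 2N, 6 samples each. Vertical lines separate tubulins, stathmins, microtubule-associated proteins, neurofilaments, kinesins and dyneins. The 2 colours overlap for every probe set, and the points spread most at Kif15, Stmn2 (95668_at), Map1b and Kif11, all below an intensity of 20.

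The 4 stathmin genes were measured by 7 tested probe sets of array A, and none passed. Stmn1 (stathmin) binds free tubulin dimers and is high in dividing cells and newborn neurons. It had 2474, 2743 and 2911 in Ts1Cje, against 2474, 2663 and 2911 in 2N. The end points of both groups were the same, being rank values shared through quantile normalisation. Scaled to the array median, Stmn1 ran from 2410 to 2986 in Ts1Cje and from 2351 to 3000 in 2N. Its quantile-normalised log2 difference was 0.03 (SE 0.0550, limma adjusted p = 0.991). Stmn2 (SCG10), a growth cone stathmin, had 1723, 1934 and 2059 in Ts1Cje, against 1586, 1913 and 2027 in 2N, for a difference of 0.05 (SE 0.0684). A second bright Stmn2 probe set gave 0.09 (SE 0.0772).

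Another, dim Stmn2 probe set (95668_at) had 2.15, 9.42 and 13.4 in Ts1Cje, against 1.29, 3.91 and 8.80 in 2N. Its difference of 1.19 (SE 0.570, limma adjusted p = 0.990, exact permutation p = 0.0693) was the largest of the members of array A and did not pass. It was 1.08 among samples 3 to 6 and 1.41 among samples 1 and 2. It was measured at an intensity near 6.46, where the bright probe sets of the same gene stood near 1867 and 698. Stmn3, a neuronal stathmin, had 606, 687 and 764 in Ts1Cje, against 590, 672 and 811 in 2N, a difference of 0.03 (SE 0.0809). Stmn4, also neuronal, had 362, 443 and 543 in Ts1Cje, against 394, 485 and 592 in 2N, a difference of -0.12 (SE 0.114). In both the ranges overlapped over most of their length, and neither passed (lowest limma adjusted p 0.990).

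Among the microtubule-associated proteins of array A, doublecortin had the smallest p (limma unadjusted p = 0.0688). Dcx, the X-linked protein that bundles microtubules in migrating neurons, had 766, 822 and 908 in Ts1Cje, against 708, 745 and 863 in 2N. The Ts1Cje samples tended to be higher, with overlap. The mean was 831 ± 52.8 in Ts1Cje and 764 ± 60.4 in 2N (SD, n = 6 each). The log2 difference was 0.12 (SE 0.0637), with a limma adjusted p of 0.990 and an exact permutation p of 0.0671. It was 0.14 among samples 3 to 6 and 0.09 among samples 1 and 2.

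Tau, encoded by Mapt, stabilises axonal microtubules and forms the tangles of Alzheimer disease and of ageing in Down syndrome. The brightest Mapt probe set, on array B, had 1669, 1716 and 1762 in Ts1Cje, against 1669, 1669 and 1762 in 2N. It took only 2 distinct values, being among the top ranks of array B. Its difference was 0.01 (SE 0.0538, limma adjusted p = 0.996). The 3 Mapt probe sets of array A gave 0.08 (SE 0.105), 0.03 (SE 0.0973) and -0.02 (SE 0.0618), so 4 probe sets in 2 designs placed the tau difference between -0.02 and 0.08. One more Mapt probe set, on array B, was too dim to be tested.

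The Map genes stabilise microtubules in dendrites and axons. Map2, the dendritic one, had 521, 564 and 584 in Ts1Cje, against 528, 559 and 658 in 2N for its brightest probe set on array B. The ranges overlapped almost fully, and the difference was -0.03 (SE 0.0650, limma adjusted p = 0.996). The Map2 probe set of array A gave 0.02 (SE 0.109). A dim Map2 probe set of array B (111562_at) had 2.60, 3.97 and 6.38 in Ts1Cje, against 4.73, 6.89 and 7.74 in 2N, a difference of -0.73 (SE 0.347, limma adjusted p = 0.996, exact permutation p = 0.0152). Samples 3 to 6 gave -0.66 and samples 1 and 2 gave -0.87. Its intensity was near 5.45, against 565 for the bright probe set of the same gene, which did not share the difference.

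Map4, a broadly expressed member, had 111, 131 and 146 in Ts1Cje, against 113, 125 and 135 in 2N, a difference of 0.07 (SE 0.0858). Map1a, which binds microtubules in mature neurons, had 97.1, 146 and 209 in Ts1Cje, against 109, 143 and 209 in 2N on array B, a difference of -0.05 (SE 0.185). Both pairs of groups overlapped and neither passed (limma adjusted p = 0.990 and 0.996). A second Map1a probe set of array B (116100_f_at), with an intensity near 143, gave -0.16 and did not pass. Map1b, the form of growing axons, was dim on array A, with 1.40, 9.79 and 15.7 in Ts1Cje, against 5.75, 7.84 and 17.4 in 2N, and a difference of -0.17 (SE 0.491). Map1s, a shorter relative, gave -0.13 (SE 0.0976).

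The 3 neurofilament subunits assemble together, with Nefl as the core and Nefm and Nefh as the side-arm subunits. None of their 5 tested probe sets passed. Nefl had 40.9, 46.5 and 60.9 in Ts1Cje, against 36.3, 42.5 and 56.8 in 2N on array A, and 114, 171 and 207 in Ts1Cje, against 134, 154 and 194 in 2N on array B. The groups overlapped on both arrays. The differences were 0.16 (SE 0.138, limma adjusted p = 0.990) and 0.10 (SE 0.125, limma adjusted p = 0.996).

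Nefm had 24.98, 29.8 and 37.6 in Ts1Cje, against 23.8, 34.1 and 45.4 in 2N on array A, and 50.9, 65.5 and 73.3 in Ts1Cje, against 56.7, 62.8 and 102 in 2N on array B. The differences were -0.17 (SE 0.169) and -0.07 (SE 0.133), with overlapping groups. Nefh, the subunit that appears last in maturing axons, had 15.2, 21.4 and 25.4 in Ts1Cje, against 16.3, 22.5 and 29.1 in 2N, a difference of -0.08 (SE 0.190). All 5 intervals of the neurofilaments lay within 1.5-fold, also under median scaling, and 1 of 5 did without normalisation.

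The kinesin-1 heavy chains Kif5a, Kif5b and Kif5c drive fast transport towards axon ends. Kif5a had 252, 279 and 321 in Ts1Cje, against 270, 281 and 300.5 in 2N on array B. Kif5b had 76.0, 82.9 and 96.0 in Ts1Cje, against 74.6, 88.5 and 93.9 in 2N, and Kif5c had 187, 198 and 221 in Ts1Cje, against 167, 205 and 240 in 2N. The ranges of the genotypes overlapped for all 3 genes. The differences were 0.01 (SE 0.0716), -0.06 (SE 0.0875) and -0.01 (SE 0.0842). On array A the brightest probe set of each gave 0.05 (SE 0.134) for Kif5a, 0.09 (SE 0.173) for Kif5b and 0.06 (SE 0.119) for Kif5c. None passed on either array.

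The Kif1 and Kif21 motors serve axons and dendrites. Kif1a, the carrier of synaptic vesicle precursors, had 86.9, 129 and 154 in Ts1Cje, against 79.4, 110 and 141 in 2N on array A, a difference of 0.17 (SE 0.144). On array B its difference was -0.10 (SE 0.106), so the arrays did not share a sign, and neither value passed. Kif1b, which carries mitochondria and synaptic vesicle precursors, had 285, 328 and 415 in Ts1Cje, against 310, 347 and 363 in 2N on array B, a difference of -0.03 (SE 0.0863). This was its brightest probe set. The 5 tested Kif1b probe sets ran from -0.28 to 0.12, and none passed. Kif21b, a neuronal motor enriched in dendrites, had 619.5 ± 85.2 in Ts1Cje and 616 ± 63.0 in 2N (SD, n = 6 each), a difference of 0.00 (0.00268, SE 0.0912). Kif1c gave 0.04 (SE 0.206), and Kif21a, a close relative of Kif21b, gave -0.08 (SE 0.139) on its brightest probe set. Over Kif1 and Kif21, 7 of 13 tested probe sets lay above 0.

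Kif3a and Kif3b form the kinesin-2 motor, which builds cilia and carries cargo in axons. Kif3a had 140, 163 and 177 in Ts1Cje, against 142, 159 and 171 in 2N on array B, a difference of 0.03 (SE 0.0789). Kif3b had 66.3, 80.6 and 93.0 in Ts1Cje, against 62.1, 70.0 and 74.3 in 2N on array B. Values of 4 of the 6 Ts1Cje samples exceeded the highest 2N value, and the other 2 fell in the 2N range. The difference was 0.21 (SE 0.0933, limma unadjusted p = 0.0385, adjusted p = 0.996, exact permutation p = 0.0260), the highest positive difference among members with an intensity of 20 or more. It was 0.26 among samples 3 to 6 and 0.10 among samples 1 and 2. On array A the Kif3b probe set gave 0.05 (SE 0.130). Kif3c gave 0.02 (SE 0.107) on array A and -0.17 (SE 0.155) on array B, and none of the 9 Kif3 probe sets passed. Kif2a, which shortens microtubules at their ends and prunes axon branches, had 64.5, 75.04 and 85.6 in Ts1Cje, against 65.8, 74.1 and 80.2 in 2N, a difference of 0.02 (SE 0.0949). Of the remaining tested kinesins of array B, Kif13b gave -0.10 (SE 0.175), and the dim Kif13a and Kif24 gave -0.68 (SE 0.380) and 0.72 (SE 0.585), none of which passed.

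The kinesins of cell division were mostly dim. On array A all 6 tested probe sets of Kif2c, Kif4, Kif11, Kif20a, Kif22 and Kif23 lay below 0, with differences from -0.39 to -0.08 and a median of -0.22, and 0 passed (limma, 0 at an unadjusted p under 0.05). On array B 3 of 5 lay below 0. The array A count was also 6 of 6 with median scaling and without normalisation. It was 5 of 6 among samples 3 to 6 (median -0.07), among samples 1 and 2 (median -0.48) and without Ts1Cje sample 2 (median -0.09). Kif11, the motor that pushes spindle poles apart, had 2.93, 5.56 and 9.49 in Ts1Cje, against 2.00, 9.40 and 13.7 in 2N, a difference of -0.39 (SE 0.464, limma adjusted p = 0.990).

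Markers of proliferating cells were set beside these motors. Of 18 listed, among them the replication licensing factors Mcm2, Mcm3 and Mcm5, 16 were measured on array A, 0 passed, 1 had an unadjusted limma p under 0.05 and 13 lay below 0, with a median of -0.16. Of all tested genes of array A, 3495 of 6855 lay below 0. The count of these markers below 0 was 13 under median scaling and without normalisation as well. Their summed intensity was 559 to 705 in Ts1Cje and 603 to 742 in 2N, with overlap. Of the defining markers, Mki67 had a log2 difference of 0.46 (SE 0.343) and Top2a of -0.18 (SE 0.499), both dim. The part of these markers in the values of the mitotic kinesins was not tested. Kif15, a spindle motor on array B, had 0.425, 3.98 and 9.41 in Ts1Cje, against 5.28, 8.94 and 13.0 in 2N for its probe set 115498_at, with 3 Ts1Cje samples below the floor of 1.13, to which they were raised for the test. Its difference was -1.47 (SE 0.578, limma unadjusted p = 0.0201, adjusted p = 0.996, exact permutation p = 0.0801). Samples 3 to 6 gave -0.55 and samples 1 and 2 gave -3.32, and 2 other Kif15 probe sets gave -0.85 (SE 0.411) and 0.00 (SE 0.382). The other mitotic motors of array B, Kif14 and Kif18b, gave 0.76 (SE 0.427) and -0.16 (SE 0.243), and neither passed.

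Cytoplasmic dynein, the motor that runs towards the cell body, was measured by 6 probe sets of 5 genes, and the 95% interval of all 6 lay within 1.5-fold, as did 5 of 6 without normalisation. Dync1h1, its heavy chain, had 463, 504 and 577 in Ts1Cje, against 472, 499 and 538 in 2N. Dync1i1, the neuronal intermediate chain, had 381, 426 and 455 in Ts1Cje, against 376, 415 and 469 in 2N. The groups overlapped almost fully in both. The differences were 0.02 (SE 0.0631) and 0.01 (SE 0.0681), each with a limma adjusted p of 0.998. Dync1i2 gave 0.00 (-0.00111, SE 0.0968), and the light intermediate chains Dync1li1 and Dync1li2 gave 0.12 (SE 0.178) and -0.09 (SE 0.126). Dync2h1, the heavy chain of the dynein of cilia, gave -0.12 (SE 0.142). Members on chromosome 12, to which the extra segment is fused, included Dync1h1, Kif26a with 0.04 (SE 0.155) and Kif3c.

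Of the 64 genes, 58 had a tested probe set and 27 had several. Of those 27 genes, 10 had differences of 1 sign on all their tested probe sets. The probe sets of 4 genes, Kif15, Map2, Stmn2 and Tubg1, differed from each other by more than 0.5 on the log2 scale. In each of these 4 the far estimate came from a probe set with an intensity below 20, and in Map2, Stmn2 and Tubg1 the probe sets at 100 or more gave values between -0.03 and 0.09. The 19 untested probe sets, among them those of Kif9, Kif16b, Kif18a, Kif20b, Kif6 and Dync2li1, had mean intensities under the 25th percentile of their array.

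Genes that act on or beside these proteins were listed in 5 groups: other intermediate filaments, the light chains, dynactin and adaptors of the motors, tubulin folding and modification, microtubule ends with severing and nucleation, and the kinases and phosphatases of tau and neurofilaments. On array A 6, 22, 17, 16 and 20 genes of these groups were tested, and on array B 1, 9, 7, 19 and 9. Of all these tests 1 passed, for Dyrk1a on array A. This kinase phosphorylates tau and lies in the extra segment of chromosome 16. It had 105 ± 10.9 in Ts1Cje and 70.9 ± 6.12 in 2N (SD, n = 6 each), and it rose by 0.57 (SE 0.0969, limma adjusted p = 0.0203). This call was lost under median scaling, with 0.54 (limma adjusted p = 0.144), and without normalisation, with 0.52 (limma adjusted p = 0.9999). With 1 sample left out in turn, the difference of Dyrk1a was 0.53 to 0.62 and passed in 4 of 12 fits, with limma adjusted p from 0.0118 to 0.0791.

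The genes named next, among the brightest of the lists, stood near 0, and none of them passed. Other genes of the lists ranged wider. On array A the differences ran from -0.82 to 0.46 for microtubule ends, severing and nucleation, and from -0.17 to 0.85 for light chains, dynactin and adaptors. The internexin Ina, which joins neurofilaments, gave -0.03 (SE 0.0542). The dynein light chains Dynll1 and Dynll2 gave 0.00 (SE 0.0636) and 0.04 (SE 0.0574). The chaperonin subunits Cct7 and Cct5, which fold tubulin, gave 0.05 (SE 0.0745) and -0.06 (SE 0.0930), and the plus-end protein Mapre1 gave -0.03 (SE 0.0735). The tau kinase Gsk3a gave 0.04 (SE 0.0646), and the tau phosphatase subunit Ppp2r2b gave -0.01 (SE 0.0716).

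Earlier results of these data set samples 1 and 2 of both genotypes apart from samples 3 to 6, a split found in the data and not given by the labels. Along it 2 members separated fully on array A, and 0 on array B, where 1.54% of all probe sets were higher and 1.41% lower in samples 1 and 2 without overlap. Mapt (102742_g_at) was 1346 to 1622 in samples 1 and 2 and 1066 to 1328 in samples 3 to 6, while Stmn2 (95669_g_at) was 1586 to 1760 in samples 1 and 2 and 1913 to 2059 in samples 3 to 6. Full separation occurred in 1.37% of all probe sets of array A in the direction of Mapt and in 1.55% in that of Stmn2. Neither gene's other probe sets separated fully. Mapt 102431_at came near, with 1723 to 1859 in samples 1 and 2 and 1213 to 1737 in samples 3 to 6. Of the latter only Ts1Cje sample 6 reached 1723, while the ranges of Mapt 102743_at overlapped widely. Within samples 3 to 6 the genotype difference was 0.00 (0.00139) for Mapt 102742_g_at and 0.01 for Stmn2 95669_g_at. Within samples 1 and 2 it was 0.09 and 0.11.

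**Figure D5:**
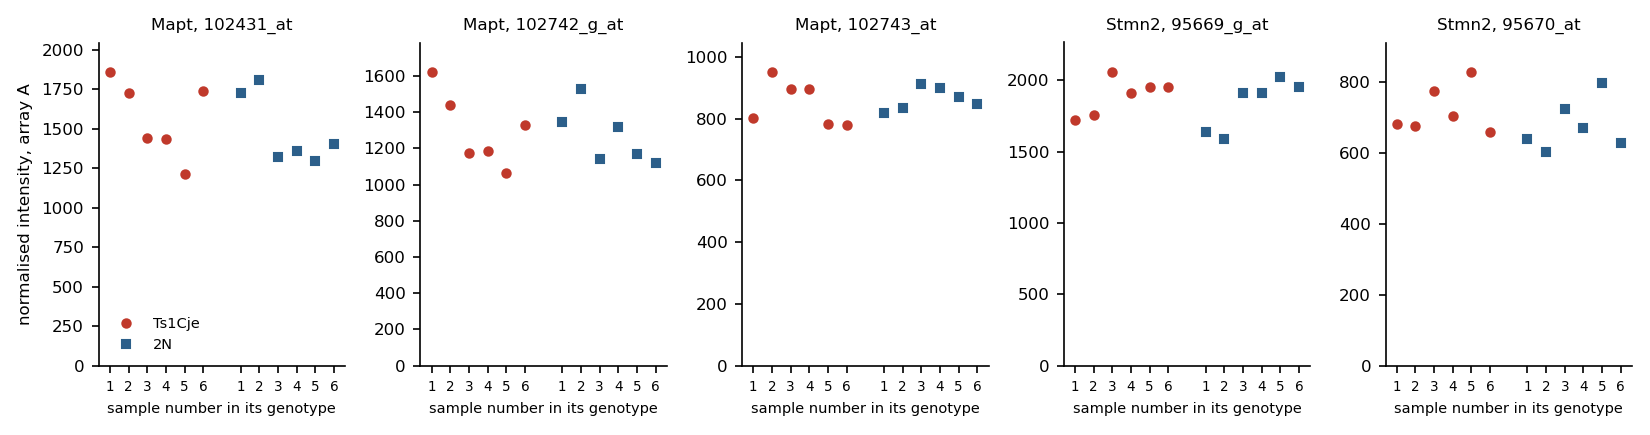
Normalised intensity on array A (y axes, linear from 0) of 3 Mapt and 2 Stmn2 probe sets, in the 6 Ts1Cje samples (circles, left) and the 6 2N samples (squares, right), placed by sample number in their genotype. In Mapt 102742_g_at samples 1 and 2 of both genotypes lie above the others (1346 to 1622 against 1066 to 1328), and in Stmn2 95669_g_at they lie below (1586 to 1760 against 1913 to 2059).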

How the data were processed

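RNA of Ts1Cje and 2N mouse brain had been hybridised to Affymetrix MGU74A and MGU74B arrays, 6 samples per genotype and array. The deposited values were 1 linear intensity per probe set and sample, already summarised from the probes by the authors, while the sources used here do not name the summarisation software. The number of arrays limits the precision. Gene symbols came from the platform annotation, and probe sets with several or no symbols were not taken as members. Chromosomes were looked up in RefSeq (assembly GRCm38.p6) by the gene identifier of the platform annotation.

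Control probe sets (66) were removed. Each design was quantile normalised, floored at its 10th percentile and log2 transformed. Probe sets with a mean under the 25th percentile were left out. Genotypes were compared in R 4.3.3 with limma 3.58.1 (lmFit and eBayes with an intensity trend), with Benjamini-Hochberg adjustment over each whole design. The procedure was tested on simulated data. Of 100 probe sets changed 1.5-fold, 32% were recovered on array A and 25% on array B. Among the 45 on each array that were brighter than the median tested probe set, 62.2% and 51.1% were. At 2-fold 62% and 60% of another 100 were recovered, and 96% and 88.2% of the brighter ones. Both sizes of change were planted together in the same simulated table of each array. Far more probe sets were called there than the 9 and 6 of the real arrays A and B. The adjusted threshold was then easier to reach, so these shares may overstate recovery in the real data. False calls numbered 10 on array A and 4 on array B. A member changed 1.5-fold could thus have failed to pass. An exact permutation test over samples, whose smallest possible p is 0.0022, was run for each member.

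Members, lists and tests were chosen with earlier results of these data known. Named were all members by role, with full sample ranges for members that passed, the 3 of each array with the smallest p, the neurofilaments and a list of 24 genes by their brightest probe set. Genes whose probe sets differed by over 0.5 were also named, and, of other lists, members that passed or up to 2 of the brightest. Replicate numbers were not taken to pair the samples in the main fit. In their deviations from the group means, 0 of 6 same-number pairs (array A) and 1 of 6 (array B) correlated above 0.1. All same-number correlations were positive, however, and 4 of 6 numbers had their own number as best match on each array. Alternatives covered normalisation, floor, offset, filter, variance model, array weights, replicate block, gene summary and left-out samples.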

Additional observations from a re-analysis of the deposited data

Results flagged for a closer look

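In 66 groups of 6 samples of the named probe sets, 6 had a highest or lowest sample far from the other 5 by Dixon's criterion, where chance flags about 1 in 20 groups. Map1b was 1.40 in Ts1Cje sample 2 on array A, where the next lowest Ts1Cje sample had 9.08. The dim Stmn2 probe set 95668_at was 2.15 in Ts1Cje sample 5, where the next had 8.05. Tuba1a (100342_i_at) was 4670 in 2N sample 2, where the other 2N samples shared the value 5567 of one rank. Tubb3 was 2342 in 2N sample 1, where the next had 2704. On array B the dim Map2 probe set 111562_at was 4.73 in 2N sample 2, where the next had 6.47. Nefm was 102 in 2N sample 1 on array B, where the next highest had 66.3. None of these genes passed the test with all samples or with any 1 sample left out.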

How the results depend on the processing

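In all 25 alternatives per array, 0 members passed (limma), the replicate block included. The 33 named probe sets gave 820 values under alternatives, of which 0 passed, with a lowest adjusted p of 0.894, and 78 changed sign. In 12 probe sets, among them Dcx and Kif1a on array A, no alternative changed the sign. The median log2 difference of the member genes on array A was 0.01 and became -0.0570 without normalisation and -0.0329 with median scaling, and member genes above 0 on array A numbered 23, and 10 and 13 under these settings. The median log2 difference of the member genes on array B was -0.03 and became 0.0178 without normalisation. All probe sets shifted with these settings too, with medians of -0.06 and -0.03 on array A and 0.05 on array B without normalisation. The replicate block kept the number of member genes above 0 on array A at 23. Of the 6 numbers, 4 had their own number as best match on each array, and all same-number correlations lay between 0.0127 and 0.109, a hint from the data and not from the design. The alternatives for Dyrk1a were chosen after its values were seen. Signal limits the dim members: below an intensity of 20, 2 of 30 intervals lay within 1.5-fold, and 0 without normalisation. Shared probes limit the assignment of tubulin signal to isotypes, and ties at the top ranks limit the brightest tubulins.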

Other observations

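The list of motor light chains, dynactin and adaptors differed between arrays. On array B 8 of its 9 tested genes lay below 0 (median -0.17) and 0 passed (limma, 1 at an unadjusted p under 0.05), and the count below 0 was 8 with median scaling and 7 without normalisation. Of all tested genes of array B, 3135 of 6174 lay below 0. The summed intensity of the 9 listed genes was 259 to 296 in Ts1Cje and 299.7 to 325 in 2N after quantile normalisation. Among all lists on both arrays, cell markers included, this was the only sum without overlap between genotypes. With median scaling it was 249.7 to 306 in Ts1Cje and 288 to 331 in 2N, so the groups then overlapped. On array A 13 of 22 genes of the same list lay above 0, and 9 with median scaling.

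The kinase Mark1, which phosphorylates tau and was picked here after its values were seen, had 1.76 ± 1.42 in Ts1Cje and 11.01 ± 5.27 in 2N on array A (SD, n = 6 each), close to the floor. Its log2 difference was -2.39 (SE 0.568, limma adjusted p = 0.350). On array B a brighter Mark1 probe set had 164 ± 17.2 in Ts1Cje and 163 ± 14.5 in 2N, a difference of 0.01 (SE 0.0858). Kif6, a kinesin too dim to be tested, had 1.38 ± 0.595 in Ts1Cje and 4.73 ± 3.44 in 2N on array B (exact permutation p = 0.0195, the lowest of the untested members).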
